A study of Mus musculus with 9 samples.

Results

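Brains of mice that drank the higher of 2 concentrations of perfluorooctane sulfonate (PFOS) were set against brains of a comparison group, gene by gene. Group H received PFOS at 50 µg/L in drinking water over 7.5 months, and for group C the labels give drinking water and state no PFOS dose. The description of the series calls the mice aged, 24-month-old animals, whose brains were perfused before collection, and the labels give SPF keeping but neither strain, sex nor brain region. A further group, L, received 0.5 µg/L for the same time, and its values stand beside those of H and C where they help to read them. Each group held 3 mRNA libraries of brain. Genes were members if they exceeded 1 FPKM in at least 3 of the 9 libraries, which 2226 of the 2996 genes in the table did. The 2996 genes were those with Ensembl numbers between 1 and 21270. All other genes were not analysed, so members of a list that lay outside the 2996 could not be tested. FPKM sets the fragments of a gene against the length given for that gene and sequencing depth, so that levels of different genes can be compared on it. Nothing in the labels ties each library to an animal of its own, so the spread behind the p-values is that between libraries and may be technical.

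PFOS is a fluorinated surfactant with an acid head group that is hardly broken down, binds to proteins and stays in the body for long. In rodent liver it is known to activate peroxisome proliferator-activated receptors (PPARs), nuclear receptors that switch on genes of fatty acid uptake and oxidation. Cells answer stress through further known programmes. Glucocorticoid hormones act through a nuclear receptor, the unfolded protein response of the endoplasmic reticulum acts through factors such as XBP1, and oxidative stress acts through NRF2, which binds DNA together with small Maf proteins.

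The libraries held 18583511 to 20431208 reads in H, 16399627 to 19999722 in L and 15371513 to 19263869 in C, so that 3 reads on a transcript of 1 kb came to between 0.147 and 0.195 FPKM. Neural genes were high in all libraries. The neuronal enolase gene Eno2 was at 213, 229.7 and 222 FPKM in H1 to H3, against 138, 208 and 177 FPKM in C1 to C3, and the myelin gene Cnp was at 96.8, 96.5 and 69.5 FPKM in H1 to H3, against 79.1, 89.0 and 73.4 FPKM in C1 to C3. Levels of regional markers differed between the libraries. Of 16 cerebellar markers listed, 5 were measured, and their mean log2 level, taken from the mean of all 9 libraries, ran between -1.74 and -0.25 in the H libraries and was 1.33 in L1, -1.30 in L2 and 2.39 in L3, while it was 4.22 in C1 and between -1.83 and -1.74 in C2 and C3. The granule cell gene Gabra6 was at 2.48 FPKM in H1 and listed at 0 in H2 and H3, against 254 FPKM in C1 and 0 in C2 and C3. Of 14 striatal markers 3 were measured, and their level was 1.86 in H2 but -1.04 in H1 and -0.998 in H3, against 0.74 in C2, 0.95 in C3 and -1.29 in C1. Results are therefore given with and without C1 where it moved them by more than 1.5 times. In such bulk tissue, fewer cells of a type and less RNA per cell cannot be told apart.

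Which transcripts set the brains of group H apart from those of group C was the question of this comparison. No gene passed an adjusted p of 0.05 (limma with Benjamini-Hochberg adjustment over 2226 genes, 0% called, lowest adjusted p = 0.89), and limma-voom, run on the reads recovered from FPKM, called 0 too. An unadjusted p under 0.05 was reached by 68 genes in limma-voom and by 71 in limma (3.19%), of which 41 were higher (1.84%) and 30 lower (1.35%) in H. The limma number was 18 without H1, 19 without H2, 36 without C1 and 274 without C2. The split between the directions also hung on scaling, as it was 34 higher and 46 lower with median of ratios scaling, 34 and 44 with quantile normalization and 27 and 48 with the trend on gene length removed from each library. In 229 genes (10.3%) the 3 H libraries did not overlap the 3 C libraries, 119 of them higher (5.35%) and 110 lower (4.94%). With 3 libraries against 3, an exact permutation test of 1 gene cannot go below p = 0.1. Labels dealt out at random would thus leave about as large a share of genes without overlap. Half-widths of the 95% confidence intervals had a median of 0.45 on the scale of log2(FPKM + 1), or 1.36-fold. Differences are given on that scale, which understates changes of low genes.

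The H libraries resembled each other more than the C libraries did. The median standard deviation of a gene's log2 level was 0.13 within H, 0.23 within L and 0.26 within C. Between C2 and C3 alone it was 0.14. A median of standard deviations from 2 libraries runs lower than one from 3, so 0.14 cannot be set against the 0.13 of H. Among the 229 genes without overlap, C1 was the C library farthest from H in 158 (69.0%), C3 in 52 and C2 in 19, while C2 was the nearest in 140. The median difference of the 119 genes above C was 0.32, and 0.23 without C1. That of the 110 genes below C was -0.29, and -0.19 without C1. Of the 24 genes that differed by more than 1 log2 unit, 11 higher and 13 lower, C1 was the most extreme of the 9 libraries in 21, and 2 genes still differed by more than 1 unit without C1.

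**Figure D1:**
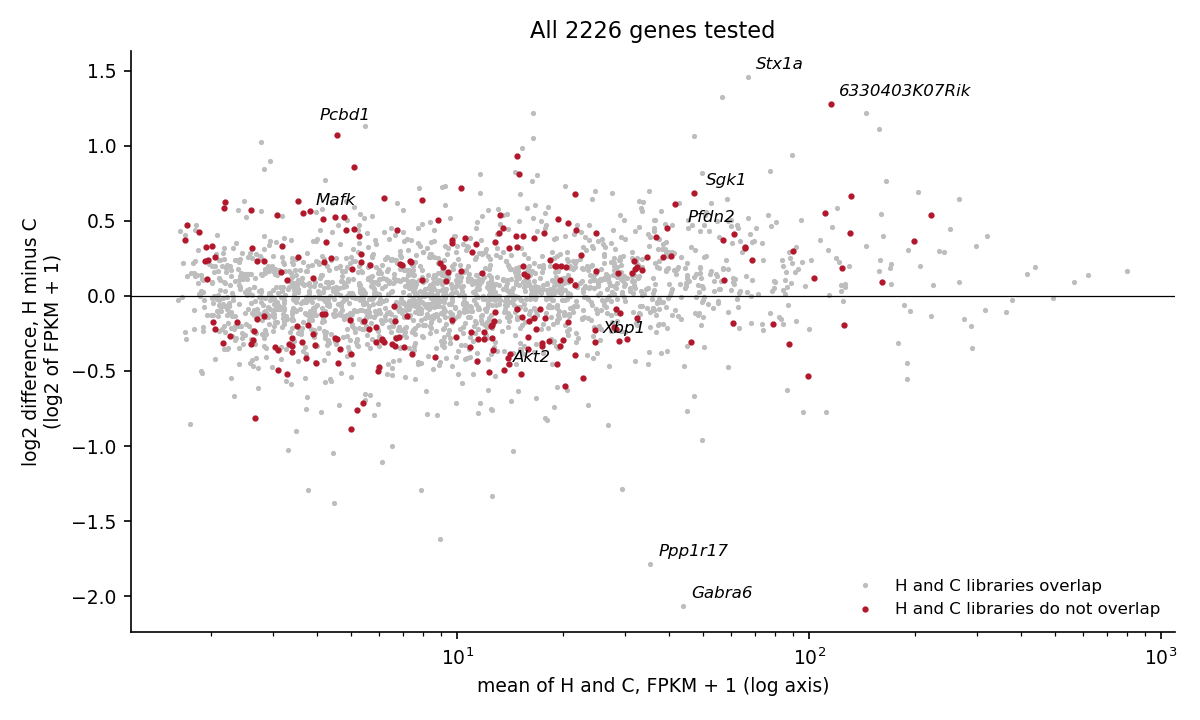
Difference between H and C for each of the 2226 genes tested (vertical axis, log2 of FPKM + 1, H minus C) against its mean level (horizontal log axis, FPKM + 1). Red points are the 229 genes whose H and C libraries did not overlap; the groups overlapped in the far points Gabra6, Ppp1r17 and Stx1a, and most red points lie within 0.5 of 0.

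Pfdn2 had the smallest p-value. It encodes a subunit of prefoldin, which hands newly made actin and tubulin to the chaperonin (ENSMUSG00000006412, chromosome 1, 171345670 to 171359254, GRCm38). Its level was 49.9, 50.0 and 47.8 FPKM in H1 to H3 and 42.8, 43.4 and 46.4 FPKM in L1 to L3, against 27.1, 37.8 and 31.4 FPKM in C1 to C3. Every H library lay above every L library and every L library above every C library. The difference between H and C was 0.61 ± 0.14 (SE), and it was 0.50 without C1 (limma, adjusted p = 0.89).

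The second was Mafk, a small Maf protein that pairs with NRF2 or with BACH factors on DNA (ENSMUSG00000018143, chromosome 5, 139791513 to 139802653). It was at 4.14, 3.83 and 3.68 FPKM in H1 to H3 and at 4.30, 3.96 and 3.90 FPKM in L1 to L3, against 2.09, 2.45 and 2.78 FPKM in C1 to C3, a difference of 0.51 ± 0.12 between H and C. Here the H and L libraries overlapped and both stood above all of C. A window from 250 bases before to 50 after the Mafk start site, taken from RefSeq (GRCm38.p6, chr5:139791286-139791585, plus strand), is shown because the gene's product binds the antioxidant response element and the window holds 1 match to that element's core, TGACNNNGC. The match, in capitals, reads on the minus strand and begins at position -13 from the start site.
Mafk: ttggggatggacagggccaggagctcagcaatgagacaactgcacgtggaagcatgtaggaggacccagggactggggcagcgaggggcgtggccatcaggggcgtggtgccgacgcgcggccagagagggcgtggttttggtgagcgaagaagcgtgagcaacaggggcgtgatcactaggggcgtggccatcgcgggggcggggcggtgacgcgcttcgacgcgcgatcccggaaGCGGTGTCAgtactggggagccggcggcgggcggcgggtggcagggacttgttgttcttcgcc
Both strands were searched, and 14.0% of 27025 genes with a window had such a match. A match is a description of the letters.

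The other genes with small p-values and higher levels in H included proteins of the mitochondrion. Mrpl22, of the large mitochondrial ribosomal subunit, was at 13.1, 14.6 and 16.1 FPKM in H1 to H3, against 8.85, 11.96 and 8.62 FPKM in C1 to C3. Slc25a11, the oxoglutarate carrier of the inner membrane, was at 43.9, 47.6 and 41.5 FPKM in H1 to H3, against 27.5, 37.5 and 31.9 FPKM in C1 to C3. C1qbp, a protein of the mitochondrial matrix, was at 20.2, 19.0 and 18.3 FPKM in H1 to H3, against 13.3, 16.8 and 12.4 FPKM in C1 to C3. In all 3 the lowest H library was above the highest C library, which was C2 each time. Their differences were 0.54, 0.45 and 0.42.

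Prmt2, an arginine methyltransferase, was at 15.4, 14.3 and 13.9 FPKM in H1 to H3 and at 22.2, 19.6 and 15.7 FPKM in L1 to L3, against 8.62, 11.1 and 11.5 FPKM in C1 to C3, so that L stood above H and H above C. Fsd1, a protein of microtubules, differed by 0.42, the spinocerebellar ataxia gene Atxn10 by 0.42 (0.27 without C1), the potassium channel gene Kcnh6 by 0.59 and Hddc2 by 0.54. The last 2 were low, at 1.30 to 2.18 and 1.85 to 3.28 FPKM in H, against 0.394 to 1.10 and 1.06 to 1.81 FPKM in C. The largest differences among genes without overlap belonged to 6330403K07Rik (1.27, and 0.42 without C1), Pcbd1 (1.07), Tpd52l1 (0.93, and 0.34 without C1), the glycine receptor gene Glra2 (0.86, and 0.55 without C1) and the chromatin protein gene Hmgb3 (0.81). Pcbd1, which recycles the tetrahydrobiopterin cofactor of neurotransmitter synthesis, was the only 1 of these 5 whose difference stayed above 1 without C1. It was at 8.51, 4.81 and 2.59 FPKM in H1 to H3 and at 13.1, 3.49 and 10.3 FPKM in L1 to L3, against 1.64, 1.84 and 1.83 FPKM in C1 to C3. The C libraries were alike, and the exposed ones spread widely.

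Among the genes lower in H, Akt2, a kinase downstream of the insulin receptor (ENSMUSG00000004056, chromosome 7, 27591552 to 27640826), had the smallest p-value. Ylpm1, a nuclear protein that binds RNA, was at 11.1, 11.9 and 10.95 FPKM in H1 to H3 and at 15.9, 13.9 and 15.6 FPKM in L1 to L3, against 18.6, 12.8 and 19.4 FPKM in C1 to C3. Osbp2, an oxysterol-binding protein, was at 15.9, 12.9 and 16.9 FPKM in H1 to H3 and at 13.3, 15.0 and 11.2 FPKM in L1 to L3, against 22.1, 20.5 and 20.6 FPKM in C1 to C3. Ylpm1 was thus lowest in H, with the mean of L between those of H and C although C2 lay below all of L, while in Osbp2 the L and H libraries overlapped. Gga3, an adaptor for cargo leaving the Golgi, was at 10.4, 9.44 and 10.4 FPKM in H1 to H3 and at 11.7, 11.1 and 12.6 FPKM in L1 to L3, against 14.3, 11.8 and 13.5 FPKM in C1 to C3. Its lowest L and C libraries lay above its highest H library. The differences between H and C were -0.52 for Ylpm1, -0.45 for Osbp2 and -0.36 for Gga3.

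Nr1d1, which encodes the clock repressor REV-ERB alpha, was the only 1 of these 20 genes with overlapping groups, at 32.0, 31.5 and 41.6 FPKM in H1 to H3 and 71.3, 39.6 and 61.1 FPKM in C1 to C3, a difference of -0.67 ± 0.23. Mfap3, a protein of extracellular microfibrils, differed by -0.48, the zinc finger gene Zfp207 by -0.60 (-0.33 without C1) and Katna1, which severs microtubules, by -0.52 (-0.34 without C1). The largest negative differences without overlap were those of the corepressor gene Cbfa2t3 (-0.89, and -0.44 without C1), the oxysterol receptor gene Nr1h3 (-0.81, and -0.27 without C1), the complement gene Cfp (-0.76, and -0.37 without C1) and the transcription factor gene Prox1 (-0.71, and -0.21 without C1). In each of these 4, C1 was the highest library, with 10.2 FPKM for Cbfa2t3, 5.54 for Nr1h3, 9.67 for Cfp and 11.4 for Prox1.

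**Figure D2:**
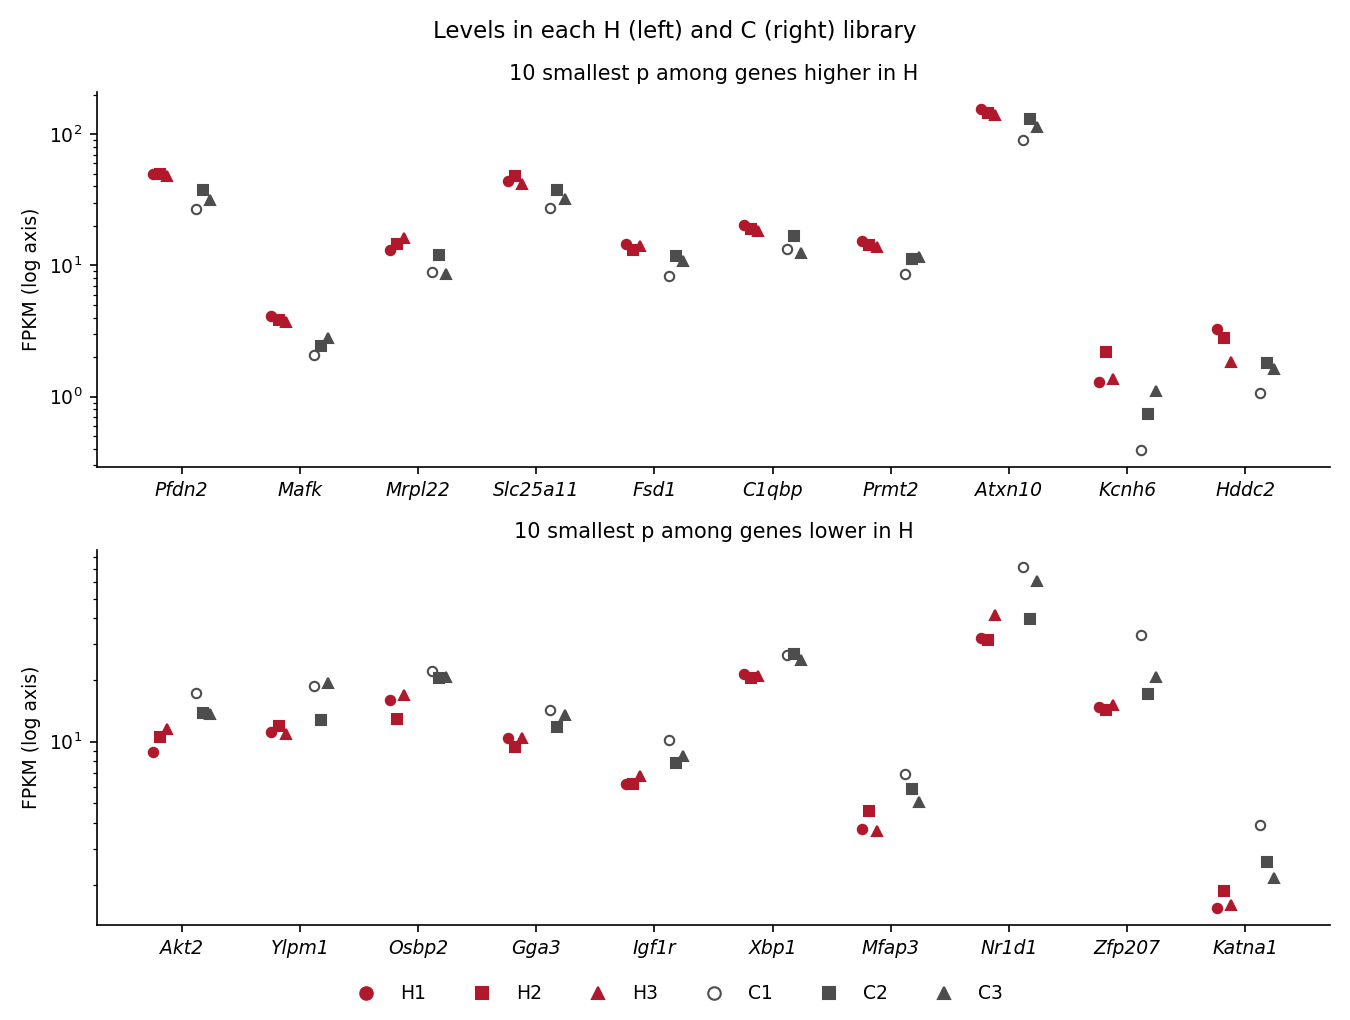
Levels (FPKM, log axis) of the 10 genes with the smallest p-values among those higher (upper panel) and lower (lower panel) in H, with H1 to H3 in red left of C1 to C3 in grey. The H points lie clear of the C points in every gene other than Nr1d1, and C1, drawn as an open circle, is the C library farthest from H in genes such as Pfdn2, Mafk and Zfp207.

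Genes that respond to glucocorticoids had the highest median difference of the 13 lists described here. Of 26 genes listed, 8 were tested; 7 had higher means in H, 3 without overlap, where 10.3% of all genes tested were, and the median difference was 0.58, or 0.43 without C1, against 0.02 over all genes tested, of which 52.7% were higher. The mean level of the list lay between 0.05 and 0.47 in H and between -0.38 and -0.05 in C, without overlap, and H1 was the highest. It was 0.26 in L1, -0.33 in L2 and -0.04 in L3, so that L1 lay within the range of H and L2 below C2 and C3. As for a single gene, an exact permutation test of such a mean cannot go below p = 0.1. No member passed the test. Plin4 and Pdk4 are members of the PPAR list as well, and their values are given there. Per1, the member with a lower mean, was at 18.2, 18.6 and 22.4 FPKM in H1 to H3, against 20.9, 18.1 and 23.7 FPKM in C1 to C3. Hif3a was at 3.89, 2.57 and 3.48 FPKM in H1 to H3, against 3.75, 1.73 and 2.85 FPKM in C1 to C3. Both had overlapping groups. Ddit4, an inhibitor of mTORC1, was at 28.0, 25.2 and 18.9 FPKM in H1 to H3 and at 19.1, 19.9 and 12.4 FPKM in L1 to L3, against 13.0, 20.3 and 10.1 FPKM in C1 to C3, so that C2 lay above H3. Arrdc2, an arrestin family member, was at 8.44, 6.53 and 4.77 FPKM in H1 to H3 and at 6.30, 3.08 and 5.23 FPKM in L1 to L3, against 2.70, 4.53 and 4.19 FPKM in C1 to C3, without overlap between H and C. The differences were 0.73 ± 0.28 for Ddit4 and 0.65 ± 0.27 for Arrdc2, and 0.68 ± 0.26 for Nfkbia, the inhibitor of NF-kappaB, in which C2 lay above H3 as well.

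Sgk1, a kinase that regulates ion channels and a classical target of the glucocorticoid receptor (ENSMUSG00000019970, chromosome 10, 21882184 to 21999903), is described as an example chosen after its values were seen. It was at 62.2, 59.4 and 46.5 FPKM in H1 to H3 and at 54.4, 29.4 and 52.7 FPKM in L1 to L3, against 21.3, 43.3 and 43.3 FPKM in C1 to C3. The H libraries lay above all C libraries, and L2 lay below C2 and C3. The difference between H and C was 0.68 ± 0.32, and 0.35 without C1, which was the lowest library. The window of 1 Sgk1 start site (RefSeq, GRCm38.p6, chr10:21993640-21993939, plus strand) is shown because it holds the palindrome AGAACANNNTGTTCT, the binding site of the glucocorticoid receptor, in capitals, beginning at position -189.
Sgk1: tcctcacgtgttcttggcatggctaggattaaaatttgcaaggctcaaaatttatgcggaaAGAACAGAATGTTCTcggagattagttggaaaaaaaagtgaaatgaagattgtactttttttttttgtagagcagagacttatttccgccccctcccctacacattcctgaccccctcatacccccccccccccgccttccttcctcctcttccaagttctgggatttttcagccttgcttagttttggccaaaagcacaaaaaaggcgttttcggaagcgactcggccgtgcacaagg
Of 27025 genes 3 (0.0111%) had this palindrome in a window of that length, and of the 8 tested members Sgk1 alone. Its 5′ arm, AGAACA, which overlaps it, was found on either strand in 21.3% of all genes and again in Sgk1 alone among the members.

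**Figure D3:**
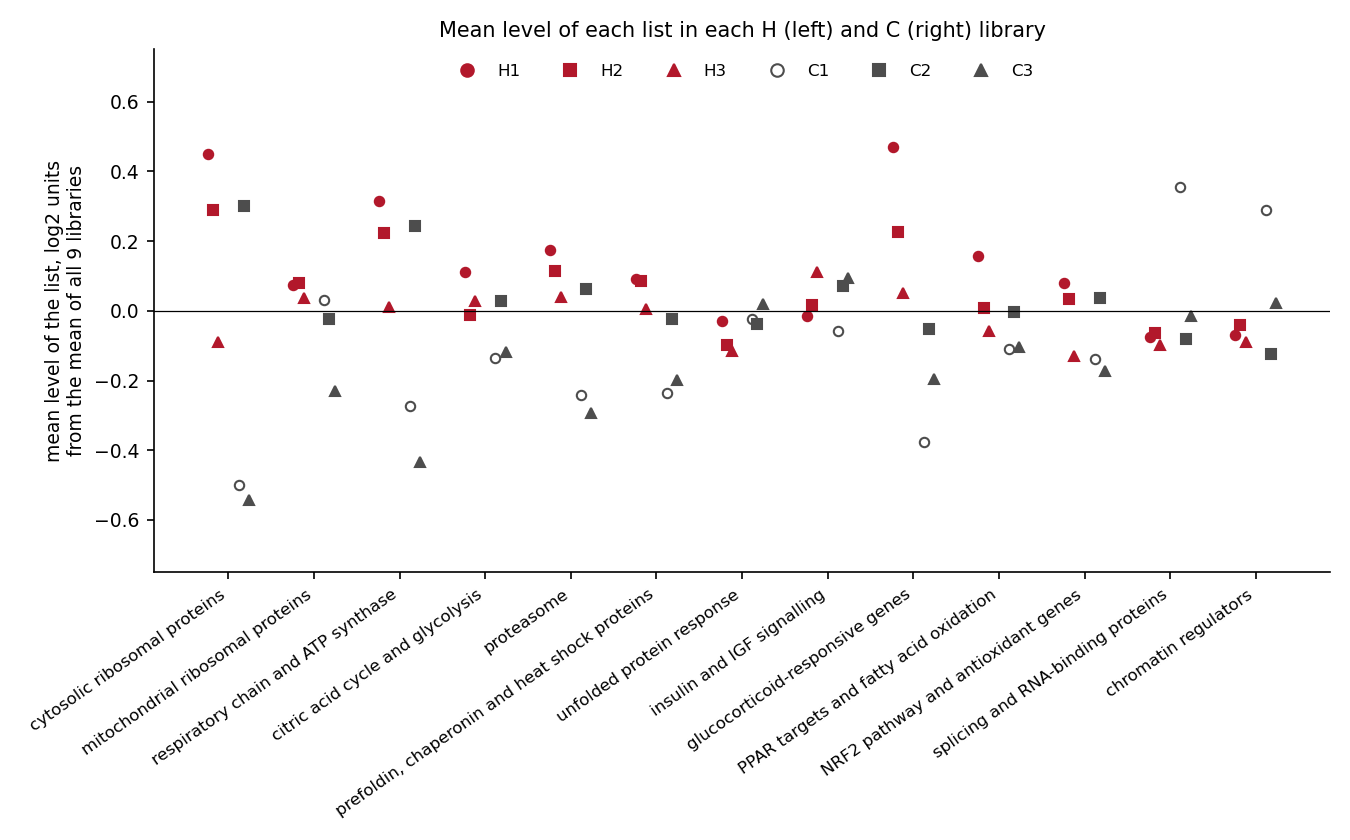
Mean log2 level of the tested members of 13 gene lists (vertical axis, log2 units from the mean of all 9 libraries) in each library, with H1 to H3 in red left of C1 to C3 in grey. H and C do not overlap for the glucocorticoid-responsive genes for the prefoldin, chaperonin and heat shock proteins, or for the mitochondrial ribosomal proteins (0.04 to 0.08 in H, against -0.23 to 0.03 in C), and C1 stands apart on top for splicing and chromatin genes.

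Genes of the unfolded protein response were split in direction. Of 22 genes listed, 8 were tested; 3 had higher and 5 lower means in H, the median difference was -0.10 (-0.07 without C1), and 2 lay below C without overlap. These 2 were Xbp1 and Calr, and of all genes tested 4.94% lay below C in this way. Xbp1, the transcription factor made active by splicing in endoplasmic reticulum stress (ENSMUSG00000020484, chromosome 11, 5520659 to 5525893), was at 21.3, 20.6 and 21.02 FPKM in H1 to H3 and at 27.8, 25.7 and 24.4 FPKM in L1 to L3, against 26.6, 26.8 and 25.1 FPKM in C1 to C3. The H libraries were within 1 FPKM of each other, and the 6 others all lay above them. The difference between H and C was -0.31 ± 0.10, and it ran from -0.33 to -0.29 when any single library of H or C was left out, so it did not rest on C1. FPKM per gene does not tell spliced from unspliced Xbp1.

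Calr encodes calreticulin, a calcium-binding chaperone of the endoplasmic reticulum (ENSMUSG00000003814, chromosome 8, 84841850 to 84846934). It was at 113, 116 and 118 FPKM in H1 to H3 and at 142, 124 and 151 FPKM in L1 to L3, against 134, 122 and 142 FPKM in C1 to C3, a difference of -0.20 ± 0.12 between H and C. All 3 H libraries again lay below the 6 others. Its membrane-bound relative calnexin, Canx (ENSMUSG00000020368, chromosome 11, 50293961 to 50325673), named after its values were seen, had a higher mean in H, with 108, 108 and 90.2 FPKM in H1 to H3 and 102, 103 and 114 FPKM in L1 to L3, against 82.0, 95.7 and 83.0 FPKM in C1 to C3 (0.23 ± 0.13). There C2 lay above H3. The windows of both genes (RefSeq, GRCm38.p6, both on the minus strand, chr8:84846882-84847181 for Calr and chr11:50325624-50325923 for Canx) are shown because both hold 1 endoplasmic reticulum stress element, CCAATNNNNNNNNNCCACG, in capitals. It begins at -162 in Calr, where it reads on the opposite strand to the gene, and at -145 in Canx, where it reads along the gene.
Calr: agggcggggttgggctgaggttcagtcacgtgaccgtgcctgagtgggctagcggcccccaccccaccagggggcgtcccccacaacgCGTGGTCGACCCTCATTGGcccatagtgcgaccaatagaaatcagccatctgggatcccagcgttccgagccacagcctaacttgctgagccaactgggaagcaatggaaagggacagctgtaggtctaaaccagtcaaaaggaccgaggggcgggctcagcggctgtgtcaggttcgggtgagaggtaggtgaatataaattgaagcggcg
Canx: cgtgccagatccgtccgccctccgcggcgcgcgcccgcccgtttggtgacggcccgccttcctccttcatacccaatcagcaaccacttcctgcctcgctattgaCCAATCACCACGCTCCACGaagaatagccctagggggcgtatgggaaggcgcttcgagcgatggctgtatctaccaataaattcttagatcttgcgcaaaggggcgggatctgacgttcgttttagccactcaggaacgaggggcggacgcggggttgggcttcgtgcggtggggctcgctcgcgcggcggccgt
This element was in the windows of 4 of the 8 tested members, the others being Hsp90b1 and Pdia6, and of 0.137% of all genes. The 4 differed in direction. Hsp90b1, the chaperone GRP94, was at 24.0, 25.02 and 25.9 FPKM in H1 to H3, against 33.3, 22.2 and 27.6 FPKM in C1 to C3, and the disulphide isomerase gene Pdia6 was at 20.8, 19.9 and 18.1 FPKM in H1 to H3, against 15.3, 23.7 and 20.2 FPKM in C1 to C3. Both had overlapping groups. The other 3 members, Dnajb9, Ern1 and Sel1l, overlapped too.

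In insulin and IGF signalling, 11 of 41 genes listed were tested, with 4 higher and 7 lower means in H and a median of -0.07, which was 0.01 without C1. Without overlap were 1 above C and 3 below, against 5.35% and 4.94% of all genes tested. The receptor Igf1r (ENSMUSG00000005533, chromosome 7, 67952827 to 68233668) was at 6.19, 6.19 and 6.79 FPKM in H1 to H3 and at 6.95, 5.90 and 7.53 FPKM in L1 to L3, against 10.2, 7.90 and 8.47 FPKM in C1 to C3 (-0.41 ± 0.13). The kinase Akt2 was at 8.92, 10.5 and 11.5 FPKM in H1 to H3 and at 11.2, 9.83 and 9.52 FPKM in L1 to L3, against 17.2, 13.8 and 13.6 FPKM in C1 to C3 (-0.49 ± 0.14). In both genes H and L overlapped and stood below every C library. Akt1, a related kinase named after its values were seen, was at 39.8, 44.3 and 38.8 FPKM in H1 to H3, against 31.1, 37.5 and 33.7 FPKM in C1 to C3, without overlap and higher in H (0.26 ± 0.12). On the FPKM scale Akt1 thus stood above Akt2 in every H and C library. The insulin receptor gene Insr overlapped, at 6.53, 6.98 and 5.84 FPKM in H1 to H3 and 8.36, 6.26 and 6.50 FPKM in C1 to C3. Igfbp3, the remaining member below C without overlap, was at 5.43, 5.66 and 5.30 FPKM in H1 to H3, against 5.77, 5.84 and 5.69 FPKM in C1 to C3.

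The PPAR list, of receptors, targets and fatty acid oxidation genes, had 11 tested of 48 listed, 7 with higher and 4 with lower means in H, and a median of 0.03 (0.11 without C1). Members without overlap were Angptl4 and Plin4 above C and the receptor gene Ppard below C. Of all genes tested 10.3% were without overlap. Angptl4, a secreted inhibitor of lipoprotein lipase, was at 2.14, 1.70 and 1.16 FPKM in H1 to H3 and at 3.38, 1.03 and 2.12 FPKM in L1 to L3, against 0.625, 0.806 and 0.698 FPKM in C1 to C3 (0.63 ± 0.27). Plin4, a coat protein of lipid droplets, was at 12.4, 7.61 and 8.20 FPKM in H1 to H3 and at 7.46, 2.91 and 5.25 FPKM in L1 to L3, against 5.73, 6.67 and 6.19 FPKM in C1 to C3 (0.51 ± 0.28, and 0.31 without H1). Angptl4 stood above C in both exposed groups, and Plin4 in H alone, since L2 and L3 lay below all of C. Ppard, a PPAR itself and named after its values were seen, was at 2.56, 2.18 and 2.26 FPKM in H1 to H3 and at 2.94, 2.30 and 3.42 FPKM in L1 to L3, against 4.15, 2.80 and 3.77 FPKM in C1 to C3 (-0.45 ± 0.16). The other receptors tested, Pparg and the partner Rxra, overlapped, with Pparg at 0.784 to 1.66 FPKM in H and 1.10 to 1.22 FPKM in C. The kinase gene Pdk4 overlapped too (0.26 ± 0.22, 0.16 without C1 and 0.11 without H1). The binding core AGGTCA of these receptors was in a window of 5 of the 9 tested members that had one, and in 18.1% of all genes. These 5 were Pparg, Cpt1c, Rxra, Acadvl and Fabp7, all with overlapping groups, and Angptl4, Plin4 and Ppard were not among them.

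Of the NRF2 pathway and antioxidant genes 10 of 38 listed were tested, with 6 higher and 4 lower means in H and a median of 0.07 (0.05 without C1). Without overlap were 2 above C and 1 below, against 5.35% and 4.94% of all genes tested. Beside Mafk, Keap1, which holds NRF2 in the cytoplasm, lay above C without overlap, at 11.2, 11.2 and 10.97 FPKM in H1 to H3 and 10.6, 10.5 and 8.58 FPKM in L1 to L3, against 7.49, 10.02 and 9.34 FPKM in C1 to C3 (0.29 ± 0.14, and 0.18 without C1). The target Hmox1, a haem-degrading enzyme, lay on the other side, at 2.43, 2.80 and 2.32 FPKM in H1 to H3 and 3.45, 3.40 and 6.19 FPKM in L1 to L3, against 3.13, 2.93 and 3.01 FPKM in C1 to C3. The gene of NRF2 itself, Nfe2l2, was at 5.45, 4.90 and 4.86 FPKM in H1 to H3, against 8.41, 5.42 and 6.53 FPKM in C1 to C3, with overlap. The antioxidant core TGACNNNGC was in 4 of 9 tested members with a window, Gstm5, Nfe2l2, Mafk and Txnrd1.

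**Figure D4:**
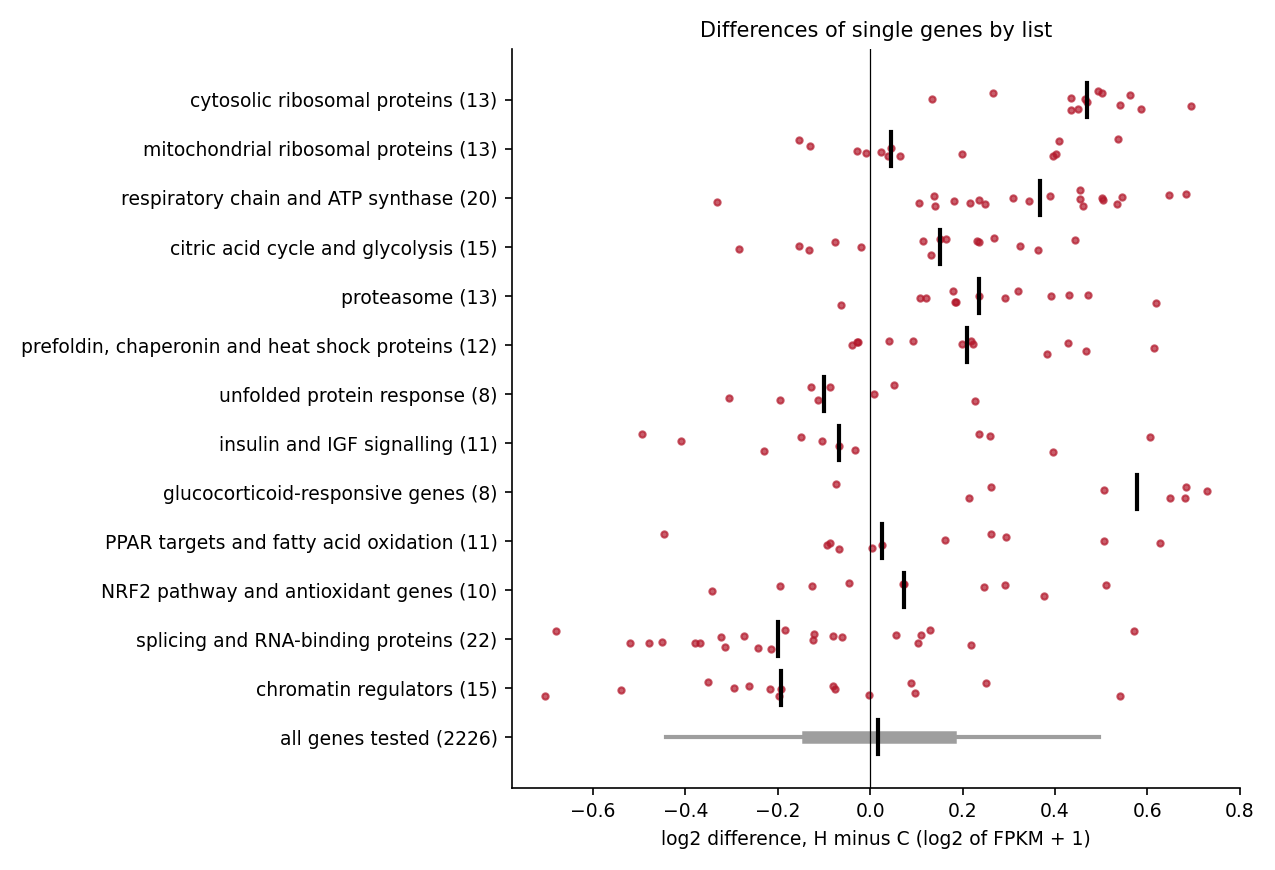
Difference between H and C (horizontal axis, log2 of FPKM + 1, H minus C) of each tested member of 13 gene lists, with the number tested in parentheses. Black bars are medians and the grey bar at the foot shows the middle 50% (thick) and 90% (thin) of all 2226 genes; ribosomal, respiratory chain and glucocorticoid-responsive members lie mostly right of 0, and splicing and chromatin members mostly left.

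Genes of protein synthesis, respiration and protein quality control had higher means in H, but with C2 often as high as H. Among cytosolic ribosomal protein genes, the means of all 13 tested were higher (median 0.47, and 0.36 without C1), yet 0 were without overlap, and the list's mean level ranged over -0.09 to 0.45 in H, with -0.54 to 0.30 in C. Rpl8, of the large subunit, was at 165, 138 and 118 FPKM in H1 to H3, against 76.2, 143 and 71.6 FPKM in C1 to C3. Rpl19 differed by 0.50 ± 0.21 and Rpl15 by 0.45 ± 0.24 (0.30 without C1). In Rpl8 C2 lay above H2 and H3. Ribosomal protein genes have near-identical processed copies, so these values are uncertain, as the handling of reads shared between copies is not given in the sources used here. Mitochondrial ribosomal protein genes were less uniform. Of 13 tested, 9 had higher means in H, with a median of 0.04 (0.14 without C1). Above C without overlap lay 3, Mrpl22, Mrpl52 and Mrpl10, against 5.35% of all genes tested. Mrpl52 was at 5.74, 5.24 and 4.05 FPKM in H1 to H3, against 3.52, 3.18 and 3.87 FPKM in C1 to C3 (0.40 ± 0.16).

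Of 20 tested respiratory chain and ATP synthase genes 19 had higher means in H (median 0.37, and 0.28 without C1), and 2 were without overlap, a share near the 10.3% of all genes. The cytochrome oxidase subunit gene Cox5a, 1 of these 2, was at 8.90, 9.17 and 7.75 FPKM in H1 to H3, against 7.32, 7.29 and 7.15 FPKM in C1 to C3 (0.22 ± 0.12). Cox7c, of the same complex, was at 110.5, 117 and 99.5 FPKM in H1 to H3, against 74.2, 104 and 58.0 FPKM in C1 to C3, so that C2 lay between H3 and H1 (0.50 ± 0.25, and 0.31 without C3). Sdhb, the iron-sulphur subunit of complex II, had a like pattern, at 45.1, 37.8 and 37.9 FPKM in H1 to H3 and 23.2, 42.0 and 25.1 FPKM in C1 to C3 (0.45 ± 0.23, and 0.30 without C1), as did Ndufa11 of complex I (0.55 ± 0.27, and 0.30 without C1).

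The 15 tested genes of the citric acid cycle and glycolysis had 10 higher means and a median of 0.15, which was 0.07 without C1. Without overlap above C were 4, against 5.35% of all genes tested, namely Eno2 (0.36 ± 0.16, and 0.20 without C1), Mdh2, Dld and Dlat. Mdh2, mitochondrial malate dehydrogenase, was at 74.0, 75.01 and 70.8 FPKM in H1 to H3, against 56.2, 70.2 and 60.5 FPKM in C1 to C3 (0.24 ± 0.12). Its cytosolic counterpart Mdh1 overlapped widely, at 311, 286 and 255 FPKM in H1 to H3 and 165, 314 and 173 FPKM in C1 to C3 (0.44 ± 0.25, and 0.28 without C1). The malate-aspartate shuttle, which carries reducing equivalents into mitochondria, uses both enzymes and the carrier Slc25a11, for which all H libraries lay above C. Slc25a13, an aspartate-glutamate carrier of the same shuttle, overlapped, at 1.26, 1.69 and 0.876 FPKM in H1 to H3 and 1.56, 1.53 and 0.856 FPKM in C1 to C3. Of 13 tested mitochondrial carriers, Slc25a11 and Slc25a13 among them, 7 had lower means in H, with a median of -0.03 (0.05 without C1).

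Of 13 tested proteasome genes 12 had higher means in H (median 0.24, and 0.18 without C1), 5 without overlap, against 10.3% of all genes. Psmd4, a ubiquitin receptor of the regulatory particle, was at 44.0, 39.3 and 38.4 FPKM in H1 to H3, against 27.6, 37.2 and 28.0 FPKM in C1 to C3 (0.39 ± 0.15). The others without overlap were Psmd3, Psmd12, Psmc1 and Psmc5, also of the regulatory particle, while its members Psmc3, Psmd2 and Psmd11 overlapped. All 5 tested genes of the catalytic core overlapped, although each differed by more than Psmd3, Psmd12, Psmc1 and Psmc5 did. Among these 5, Psmb1 was at 25.2, 25.1 and 22.1 FPKM in H1 to H3 and 14.7, 23.7 and 14.2 FPKM in C1 to C3 (0.47 ± 0.20), and Psma2 differed by 0.32 ± 0.15. Of 12 tested prefoldin, chaperonin and heat shock genes 9 had higher means (median 0.21, and 0.11 without C1). The mean level of this list was 0.01 to 0.09 in H and -0.24 to -0.02 in C, without overlap, and 0.02, 0.13 and 0.13 in L1 to L3. Here too an exact permutation test cannot go below p = 0.1. Pfdn5, another prefoldin subunit, was at 91.9, 100.02 and 75.01 FPKM in H1 to H3, against 53.6, 83.2 and 57.8 FPKM in C1 to C3, so that C2 lay above H3, unlike in Pfdn2 (0.47 ± 0.23). The chaperonin subunit gene Cct4 differed by 0.43 ± 0.21.

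Genes of RNA processing and chromatin lay mostly lower in H. Of 22 tested splicing and RNA-binding genes 16 had lower means, with a median of -0.20, and of 15 tested chromatin regulators 11, with a median of -0.19. Without C1 the medians were -0.01 and -0.04. The mean level of the splicing list was -0.10 to -0.06 in H, against 0.35 in C1, -0.08 in C2 and -0.02 in C3, and that of the chromatin list was -0.09 to -0.04 in H, against 0.29 in C1, -0.12 in C2 and 0.02 in C3. Luc7l3, an RNA-binding splicing factor, shows the shape, at 11.1, 9.87 and 10.8 FPKM in H1 to H3, against 39.2, 10.4 and 12.9 FPKM in C1 to C3. The 3 splicing members below C without overlap were Ylpm1, the neuronal splicing regulator Rbfox1 and the spliceosome subunit gene Sf3a1. Of all genes tested 10.3% were without overlap, 4.94% of them all below C. Rbfox1 was at 64.4, 83.9 and 82.6 FPKM in H1 to H3 and at 72.4, 70.6 and 62.2 FPKM in L1 to L3, against 87.8, 100.1 and 100.4 FPKM in C1 to C3. All 6 exposed libraries lay below all of C. Its difference was -0.32 ± 0.14, -0.39 without C1 and -0.20 without H1. Sf3a1 was at 12.6, 14.6 and 13.0 FPKM in H1 to H3, against 18.3, 14.8 and 16.2 FPKM in C1 to C3 (-0.27 ± 0.14).

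Differences also went with the gene length that was deposited, which is the length used in FPKM. Across genes, which are not independent replicates, the difference between H and C and the length had a Spearman correlation of -0.25, and -0.23 without C1, as a description over 2226 genes measured in the same libraries. The genes were divided into 4 classes of about equal size by gene length. In the class of the shortest lengths, 419 to 2823 bases, 68.2% had higher means in H (median 0.12). In that of the longest, 6726 to 25884 bases, 42.7% had (median -0.04). Without C1 these medians were 0.11 and 0.00189. In the shortest class the median deviation from the mean of all libraries was 0.10 in H1, 0.07 in H2 and -0.02 in H3, against -0.12 in C1, 0.04 in C2 and -0.19 in C3. C1 and C3 were thus low on short genes, and C1 was high on long ones, at 0.11. Genes without overlap above C had a median length of 3381 bases and those below C one of 5247 bases, against 4308 bases for all genes tested. The ribosomal and respiratory chain lists had median lengths of 2053 and 2014.5 bases, and their median differences were 0.36 and 0.15 once the length trend of each library was removed.

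**Figure D5:**
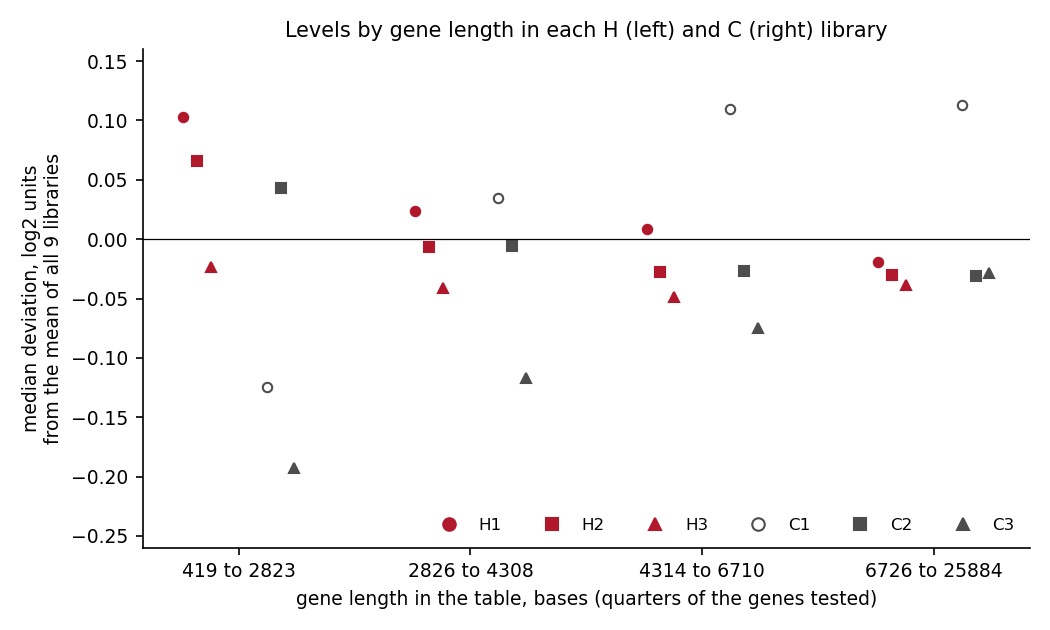
Median deviation of a gene's log2 level from its mean over all 9 libraries (vertical axis, log2 units) in 4 classes of gene length (horizontal axis, bases). H1 to H3 are in red left of C1 to C3 in grey. In the shortest class H1 and H2 lie at 0.10 and 0.07, against -0.12 in C1 and -0.19 in C3, with C2 at 0.04, while in the longest class the libraries other than C1 lie close together.

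In 53 genes (2.38%) all 3 H libraries lay outside the range of both the L and the C libraries, 13 above (0.584%) and 40 below (1.8%). For 3 libraries drawn at random from all libraries about the same share of genes would do so. Pfdn2, Plin4, Keap1 and Eno2 were among those above, and Xbp1, Calr, Hmox1, Ylpm1, Gga3, Zfp207, Katna1, Cbfa2t3 and Prox1 among those below. Examples chosen from these genes after their values were seen follow. Cdc37, which delivers kinases to HSP90, was at 15.9, 15.2 and 15.6 FPKM in H1 to H3 and at 14.5, 14.3 and 14.0 FPKM in L1 to L3, against 14.8, 14.3 and 13.1 FPKM in C1 to C3. Its H libraries lay close together and above the 6 others. Galk1, a galactokinase, was at 4.66, 4.48 and 4.62 FPKM in H1 to H3 and at 3.99, 4.27 and 2.79 FPKM in L1 to L3, against 2.11, 4.02 and 2.73 FPKM in C1 to C3. Irf9, part of the complex that carries type I interferon signals, was at 1.81, 1.37 and 1.38 FPKM in H1 to H3 and at 2.62, 2.60 and 3.62 FPKM in L1 to L3, against 4.003, 1.95 and 2.01 FPKM in C1 to C3 (-0.49 ± 0.22, and -0.24 without C1). For Galk1 and Irf9 C1 was the C library farthest from H.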

How the data were processed

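Total RNA of mouse brain was sequenced as mRNA libraries, 3 a group, per the labels. The authors deposited FPKM values of each gene and library with a column of gene lengths in bases, per the file headers. GRCm38 comes from the submitters' processing notes, while aligner, counting program, strand setting and the handling of shared reads were not given in the sources used here, so reads of overlapping genes cannot be told apart. The genes were the 2996 with Ensembl numbers between 1 and 21270. All other genes were not analysed here. Coordinates were taken from GENCODE M21 by Ensembl identifier, since those in the table equalled GENCODE for 20 genes alone.

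Within 0.01 reads, FPKM times length was a whole multiple of 1 read for 100% of values, which gave each library's reads. Intervals and floors from reads cover counting error only. Levels were transformed to log2(FPKM + 1). The 2226 genes above 1 FPKM in 3 or more of the 9 libraries were fitted with limma 3.58.1 (R 4.3.3, group means of H, L and C over 9 libraries, mean-variance trend, robust moderation, contrast H minus C). P-values were two-sided and adjusted over all genes tested. The fit was tested on simulated data. Gene lists are described by counts and medians, without a test.

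The members, lists and tests were chosen with earlier results of these data known. Genes were named by a rule: the 10 smallest p-values in each direction, the 5 largest differences in each direction without overlap, up to 3 members of each list with at least 3 tested by p-value in the list's main direction, and Angptl4, Cpt1a, Pdk4, Plin4, Fabp7, Gfap, Fos, Gabra6, Ppp1r17, Adora2a and Stx1a where tested. Further list members are given as values, chosen after these were seen. Of 36 lists, 24 had at least 5 tested members and 13 are described. Replicate numbers come from the sample titles. Deviations of same-numbered H and C libraries correlated at 0.41, -0.03 and 0.37, and those of differently numbered ones at -0.54 to 0.19. The labels name no pairs, so the numbers were not taken as such, and whether they reflect a shared order was not tested. Promoter windows, 250 bases before to 50 after a start, were RefSeq's for GRCm38.p6. Python 3.11.15 with pandas 2.3.3 read the tables and matplotlib 3.10.9 drew the figures. Some results are not reported here.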

Additional observations from a re-analysis of the deposited data

How the results depend on the processing

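Under 25 alternatives (pseudocount, filter, scaling, limma-voom, moderation, libraries in the fit, length trend, regional marker levels as covariates, each library left out) limma called 0 genes, and the lowest adjusted p of any gene was 0.395, without C2. The cause of each shift given here was not tested, other than that fewer genes or libraries entered some fits. All 1484 recomputed differences of the 60 genes whose differences are given in the sections above kept their direction. Genes that changed sign had been left out of these 60, so for libraries left out in turn this followed from the choice. Some alternatives, such as leaving out an L library, cannot change the difference between H and C. Of 108 genes named by the rule, however, 20 changed sign when 1 library of H or C was left out, and these are given elsewhere as levels, as points of a plot or not at all. Among them, Stx1a differed by 1.46 and by -0.34 without C1, Gabra6 by -2.06 and 0.60, and Hsp90b1 by -0.13 and 0.01, and the difference of Gfap ranged from -0.38 to 0.13. The number of genes at an unadjusted p under 0.05, 71, was 46 for genes with a mean over 5 FPKM, where 149 genes were without overlap, and 37 with H2 and H3 against C2 and C3. It ranged from 18 to 274 when 1 library was left out.

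Of 325 recomputed list medians 304 moved by less than the spread between libraries. That spread includes C1, so the chromatin median counted as unmoved although it went from -0.19 to -0.04 without C1. Alternatives such as leaving out an L library cannot move a median. With H2 and H3 against C2 and C3, where L2 alone stood for L, the median was 0.17 for mitochondrial ribosomal proteins, -0.00320 for the citric acid cycle and glycolysis, 0.0697 for chaperones, -0.14 for the unfolded protein response, 0.29 for glucocorticoid-responsive genes, 0.00294 for splicing and -0.0392 for chromatin. Without C1 and L3 it was 0.0683 for the citric acid cycle, 0.107 for chaperones, 0.0109 for insulin and IGF signalling and -0.0103 for splicing. With the cerebellar marker level as a covariate it was -0.0429 for the unfolded protein response. When 1 library was left out, medians ranged from 0.0683 to 0.185 for the citric acid cycle, 0.107 to 0.237 for chaperones, -0.192 to -0.0359 for the unfolded protein response, -0.112 to 0.0109 for insulin and IGF signalling, 0.000807 to 0.143 for the PPAR list and -0.267 to -0.0103 for splicing. Overlap was not recomputed without a library of H or C, since fewer libraries overlap less by construction.

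With the replicate number as a block, 86 genes (57 higher and 29 lower) had an unadjusted p under 0.05 and 0 were called. The samples share only a number. H1 correlated best with C1 and H3 with C3, but H2 with C3 as well. With 3 libraries a group, low genes carry the widest error, since 3 reads on 1 kb already make 0.147 to 0.195 FPKM.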

Other observations

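Further lists of genes were read in the same libraries, and no member of them passed the test (limma). Over the 9 other lists with at least 5 tested members that are not markers of a region or cell type the median difference ran from -0.04 to 0.31, and from -0.39 to 0.10 without C1. That of the 5 tested cerebellar markers was -1.62, and 0.60 without C1, and that of the 6 tested astrocyte markers was -0.17, and -0.13 without C1. The highest, 0.31 for synaptic vesicle and active zone genes, rests on C1, as it was -0.02 without it. Of 9 tested genes of tau, amyloid and neurodegeneration 7 had higher means in H, with a median of 0.13, and 0.06 without C1. Of 18 tested genes of lipid synthesis and sterol metabolism 13 had higher means, with a median of 0.11, and 0.06 without C1. The 2 without overlap, Nr1h3 and Osbp2, lay below C, a share near the 10.3% of all genes without overlap.

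When genes were grouped by the function classes of eggNOG in the deposited table, energy production had a median difference of 0.10 over 137 tested genes, 61.3% of them higher in H. RNA processing (116 genes) and chromatin (67 genes) had medians of -0.06, with 40.5% and 40.3% higher. Without C1 these medians were 0.06, 0.03 and 0.03, so that the last 2 changed sign. The mean level of the RNA processing class was between -0.05 and -0.02 in H, against 0.24 in C1, -0.05 in C2 and -0.09 in C3. Among astrocyte genes, 4 of 6 tested had lower means in H, and Gfap was at 71.5, 80.4 and 38.9 FPKM in H1 to H3, against 60.8, 54.3 and 99.3 FPKM in C1 to C3. The immediate early gene Fos was at 3.33, 3.36 and 8.15 FPKM in H1 to H3, against 4.48, 8.19 and 7.33 FPKM in C1 to C3. Both had overlapping groups.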
